A study of Salmo salar with 37 samples.

Results

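Crystallins are best known as the abundant structural proteins of the eye lens. Beta- and gamma-crystallins belong to one family of compact proteins that pack the fibre cells of the lens, and several members have also been found at lower levels outside the eye. The J1 crystallins form a separate group that was first described in the lens of jellyfish and is related to enzymes that remove ADP-ribose from proteins. Crystallin transcripts were followed here in the testis of Atlantic salmon males around the initiation of puberty. The members were all array probes whose description in the study's supplementary list of differentially expressed genes contains the word crystallin, and the list gives 6 such probes of the 43689 on the array. They are described as Beta-crystallin A4 (probe CUST_23389_PI417904088), Beta-crystallin A3 (CUST_15996_PI417904088), Beta-crystallin B3 (2 probes, CUST_23835_PI417904088 and CUST_32302_PI417904088), Gamma-crystallin M2 (CUST_24714_PI417904088) and Crystallin J1A (CUST_10062_PI417904088). Only probes in that list carry a description here, so that crystallin probes without a listing could not be recognised.

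The study asked how feed ration modulates testicular gene expression at the start of puberty. RNA from the testes of 37 males was measured on one-color arrays, on which the brightness of a spot reports the abundance of 1 transcript, with 1 male per array, 21 of them on a restricted ration (RR) and 16 on a normal ration (NR) according to the sample titles. Another field of the labels gives a normal ration for all 37, and the titles were followed. All fish came from 1 stock of one age and were sampled on several winter dates, NR fish were fed every day and RR fish only on Mondays, Wednesdays and Fridays, and each ration had its own sea cage, so that ration and cage cannot be told apart. Males whose testes had developed beyond type A spermatogonia, the earliest germ cells, had been left out by the study. Each RNA sample came from a piece of the cranial part of the testis, in which a lower signal from fewer cells of a type and one from less RNA per cell cannot be told apart. The labels give neither the maturational status nor the sampling date of a male, and neither was used. Values are normalized log2 signals, so that a difference of 1 is a doubling, and a probe's level is compared between males but never with the level of another probe.

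The list itself was made from these samples, which limits what can be tested. Beta-crystallin A4 was listed as lower in RR males, both over all males and among maturing males, and the B3 probe CUST_23835 as lower in maturing RR males. For these 2 probes the difference between rations is a description only. The other 4 probes were listed as higher in maturing than in immature males, and for them the relation to maturation is a description only.

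All 6 probes were in the set tested, with 5 of them well above background on all 37 arrays and CUST_23835 on 36. The arrays had between 34084 and 43287 probes well above background in RR males and between 34857 and 41394 in NR males. The array of RR male 16 stood apart, with a median intensity of 860, against at most 445 on the other RR arrays and 470 on the NR arrays. Values without RR male 16 are given beside many of the results, but not for every probe and fit. The arrays were scanned on 2 days, with 6 RR and 11 NR males on day 1 and 15 RR and 5 NR males on day 2. Transcripts of proliferation genes and of a steroid synthesis enzyme were present. Over 10 probes of proliferation genes the mean log2 signal was 9.47 to 12.60 in RR males and 10.12 to 11.75 in NR males. An enzyme of Leydig cell steroid synthesis, 3 beta-hydroxysteroid dehydrogenase, had 2 probes. Their mean was 8.58 to 11.03 in RR males and 9.42 to 11.74 in NR males.

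Beta-crystallin A4, one of the acidic beta-crystallins of the lens, was lower in RR testes. Its log2 signal had a lowest value of 7.61, a median of 9.83 and a highest value of 11.57 in RR males, against 10.76, 11.29 and 11.86 in NR males. Of the 21 RR males, 16 lay below the lowest NR male and 20 below the NR median, and none lay above the highest NR male. The mean was 9.86 ± 1.101 in the 21 RR males and 11.29 ± 0.32 in the 16 NR males (SD), which gave a difference of -1.44 (SE 0.28, 95% interval -1.996 to -0.88), or 2.71-fold lower. It was the 1 crystallin probe of 6 past the thresholds of the study (limma, Benjamini-Hochberg adjusted p below 0.01 and fold change above 1.5), as were 0.256% of all probes tested, and since the probe was chosen by this contrast the call is not independent evidence. Leaving out RR male 16 gave -1.36, and leaving out any other single male gave between -1.52 and -1.33.

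A4 also varied more among RR than among NR males. The SD in RR males was 3.49 times that in NR males, while the ratio was 1.65 at the median of all probes tested and above 1 in 91.5% of them. For the other 5 crystallin probes it lay between 1.73 and 2.27. Without RR male 16 the ratio was 3.37 for A4 and between 1.55 and 2.28 for the other 5. The lowest A4 signals were those of RR males 11, 3, 16 and 4, at 7.61, 7.95, 8.24 and 8.47. The same fish were low for other crystallin probes: RR males 3 and 4 were among the 5 lowest RR males for all 6 probes, and RR males 11 and 16 for 5 of 6. Most of these probes had been listed as lower in immature males, so that shared low ranks can follow from that choice. The share of all probes with such ranks is not given here, and nothing about the family is read from them. RR males 3, 4, 11 and 16 were all scanned on day 2, and RR male 16 is the array that stood apart.

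**Figure D1:**
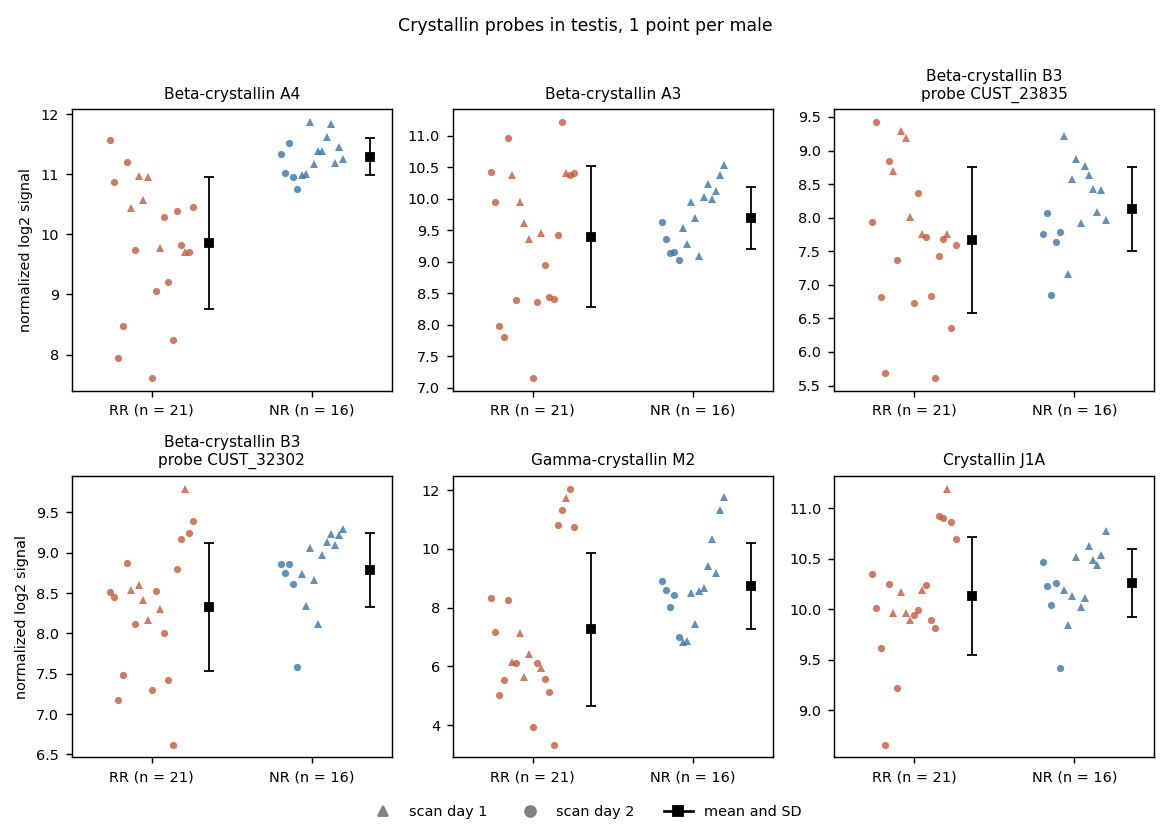
Normalized log2 signal of the 6 crystallin probes (y axis, own scale per panel) in RR and NR males, with 1 point per male, the shape giving the scan day and black squares with bars the mean and SD. Points are spread sideways for legibility only. A4 in RR males reaches down to 7.61, against 10.76 in NR males, and Gamma-crystallin M2 in RR males leaves a gap between 8.32 and 10.76.

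Within scan day 1, A4 ranged from 9.71 to 10.97 in 6 RR males, against 10.98 to 11.86 in 11 NR males. The rations did not overlap on that day, as was so with all RR males lower for 0.0614% of all probes tested. Within day 2 it ranged from 7.61 to 11.57 in 15 RR males, against 10.76 to 11.51 in 5 NR males, which overlapped. The differences were -0.97 on day 1 and -1.48 on day 2, and -1.22 (SE 0.29) with scan day as a block, where A4 no longer passed the thresholds. In that model 0 of the 6 probes passed (limma), against 0.0221% of all probes tested, and 1, A4 itself, had an unadjusted p below 0.05. The share of all probes below 0.05 in that model is not given here.

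The 2 probes for Beta-crystallin B3, one of the basic beta-crystallins of the lens, had smaller differences between rations. The array gives them different sequence identifiers, so that they may not report the same transcript. CUST_23835 had a lowest value of 5.61, a median of 7.71 and a highest value of 9.42 in RR males, against 6.85, 8.08 and 9.21 in NR males. Its difference was -0.46 (SE 0.29) and -0.09 (SE 0.29) with scan day as a block. CUST_32302 had 6.62, 8.46 and 9.80 in RR males, against 7.58, 8.86 and 9.29 in NR males. Its difference was -0.45 (SE 0.22, 95% interval -0.89 to -0.02) and did not pass the threshold (adjusted p = 0.288 in limma). It was -0.29 (SE 0.23) with scan day as a block and -0.37 (SE 0.20) without RR male 16. The ranges of both probes overlapped broadly, with RR males below the lowest and above the highest NR male in each case.

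Beta-crystallin A3, an acidic beta-crystallin like A4, ranged from 7.15 to 11.22 in RR males with a median of 9.46, against 9.02 to 10.54 in NR males with a median of 9.66. RR males lay on both sides of the NR range, 8 below its lowest value and 2 above its highest. The difference of -0.30 (SE 0.29, 95% interval -0.89 to 0.29) did not pass the threshold (adjusted p = 0.624 in limma). With scan day as a block it was -0.04.

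Gamma-crystallin M2, of a type of gamma-crystallin known from the fish lens, had the widest range of the family. It ran from 3.34 to 12.06 in RR males with a median of 6.16, against 6.82 to 11.76 in NR males with a median of 8.58. All 16 NR males lay above the RR median and 12 RR males below the lowest NR male, while 1 RR male lay above the highest. The mean was 7.26 ± 2.62 in the 21 RR males and 8.74 ± 1.45 in the 16 NR males (SD). The difference of -1.48 (SE 0.70, 95% interval -2.90 to -0.05) was as large as that of A4 but did not pass the threshold (adjusted p = 0.287 in limma). It was -1.36 (SE 0.78) with scan day as a block and -1.28 (SE 0.68) without RR male 16. Its size also depended on the processing. With another background correction (normexp) it was -0.89 (SE 0.54), against -1.37 (SE 0.25) for A4. Crystallin J1A differed least, with 8.66 to 11.19 in RR males (median 10.01), against 9.42 to 10.78 in NR males (median 10.24), and a difference of -0.13 (SE 0.16, adjusted p = 0.715 in limma).

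All 6 differences were below 0, with a median of -0.46, against -0.02 over all probes tested. An unadjusted p below 0.05 was found for 3 of the 6 (A4, CUST_32302 and Gamma-crystallin M2), against 16.4% of all probes. That count was 1 with 75th percentile scaling, 2 with the t-test of the study's methods and between 1 and 3 with 1 male left out. Since A4 and CUST_23835 had been listed as lower in RR males, these summaries over the 6 probes are not independent evidence. The probe described as Lens fiber membrane intrinsic protein (CUST_15099_PI417904088), a membrane protein of lens fibre cells and the other lens gene of the list, was likewise chosen on these samples. It ranged from 10.97 to 13.50 in RR males (median 12.47), against 12.61 to 13.62 in NR males (median 13.43). Its difference was -0.82 (SE 0.15) and -0.81 with scan day as a block.

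To order the males by maturation without a label of status, each male was given a maturation score, the mean log2 deviation over 1136 tested probes that the study lists as higher in maturing males, crystallins left out. The score ran from -0.68 to 1.05 in RR males and from -0.36 to 0.59 in NR males. The RR scores fell into 2 clusters, 16 males at or below 0.00 and 5 males (RR males 17 to 21) at 0.67 and above, so that correlations are given within the 16 and within NR males. RR males 16, 4, 11 and 3, which were lowest for A4, also had the 4 lowest scores of all males, between -0.68 and -0.46. The score was built from a list made on these samples and describes them only. Of its 1136 probes, 893 were in no ration list of the study. The others had also been listed between rations, so that the score can carry ration as well as maturation.

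Gamma-crystallin M2 followed the score most steeply of the 6 probes, by 4.52 log2 units per unit of score (SE 0.21) in a fit with ration. It correlated with the score at r = 0.94 and rho = 0.91 in NR males (n = 16) and at r = 0.92 and rho = 0.86 in the lower 16 RR males. Without the 2 males farthest from the median score r was 0.90 in NR males and 0.86 in these RR males, and without RR male 16 it was 0.89 in these RR males. In RR males 17 to 21 Gamma-crystallin M2 lay between 10.76 and 12.06. The slopes of A3 (1.37, SE 0.23), B3 CUST_32302 (1.19, SE 0.13) and J1A (0.88, SE 0.10) were also positive. Their correlations with the score lay between 0.82 and 0.83 in NR males (rho 0.82 to 0.91) and between 0.58 and 0.85 in the lower 16 RR males (rho 0.84 to 0.91). In these RR males 22.8% of all probes had an r at least as far from 0 as J1A, 0.752% as A3 and 0.804% as CUST_32302. For Gamma-crystallin M2 the share was 0.0737%. In NR males the shares were 3.01% for J1A, 2.74% for A3, 3.15% for CUST_32302 and 0.123% for Gamma-crystallin M2. Without the 2 males farthest from the median score, r in NR males was 0.72 for A3, 0.82 for CUST_32302 and 0.77 for J1A. In the lower RR males it was then 0.86 for A3, 0.75 for CUST_32302, against 0.85 with them, and 0.63 for J1A. Without RR male 16 alone, r in the lower RR males was 0.89 for A3, 0.79 for CUST_32302 and 0.64 for J1A. These 4 probes had been listed for maturation, and slopes above 0 at an adjusted p below 0.01 were found for 19.7% of all probes tested.

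**Figure D2:**
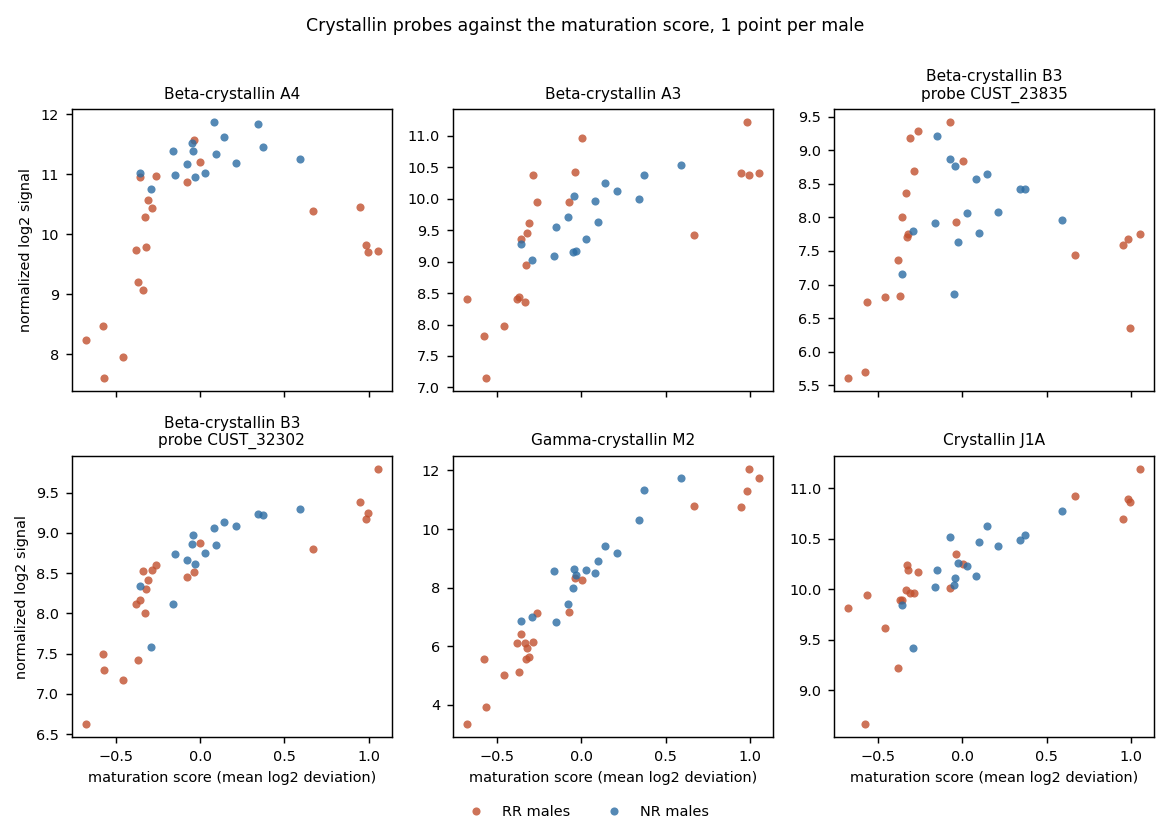
Normalized log2 signal of the 6 crystallin probes (y axis, own scale per panel) against the maturation score (x axis, mean log2 deviation), with 1 point per RR or NR male. Gamma-crystallin M2 runs upward over the whole score, while A4 and the B3 probe CUST_23835 are highest at middle scores and lower in RR males 17 to 21 on the right.

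A4 did not follow the score in this way over its whole length. In the lower 16 RR males it correlated with the score at r = 0.85 and rho = 0.88, and 0.659% of all probes had an r at least as far from 0 in these males. The A4 value of r was 0.84 without the 2 males farthest from the median score and also 0.84 without RR male 16. In NR males r was 0.49 and rho 0.51, with 26.7% of all probes at least as far from 0, and r was 0.65 without the 2 farthest males. In RR males 17 to 21, which had the highest scores, A4 lay between 9.70 and 10.45. Over all males its slope on the score was 0.58 (SE 0.29, adjusted p = 0.0985 in limma), against a share of 37.3% of all probes with a slope past 0.01 in either direction. The slope was 0.57 in RR males and 0.62 in NR males, a difference of -0.05 (SE 0.90, unadjusted p = 0.956 in limma). The RR slope is a straight line through both clusters and through the bend described below. The comparison therefore cannot show whether the rations have like slopes, and nothing is read from it.

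In the lower 16 RR males CUST_23835 correlated with the score at r = 0.80 and rho = 0.87 (2.11% of all probes at least as far from 0), and r was 0.73 without RR male 16 and also 0.73 without the 2 males farthest from the median score. In NR males r was 0.21 and rho 0.19, with 65.9% of all probes at least as far from 0, and r was 0.29 without the 2 farthest males. Whether A4 and CUST_23835 differ in their relation to the score was not tested. In RR males 17 to 21 it lay between 6.36 and 7.76. Its slope over all males was 0.16 (SE 0.33, adjusted p = 0.728 in limma), -0.03 without RR male 16 and 0.40 without RR male 20. For the other B3 probe, CUST_32302, RR males 17 to 21 lay between 8.80 and 9.80, which includes its highest value, and the difference between the 2 B3 probes was not tested.

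The bend was measured by adding the square of the score to the fit with ration. The square term was -3.62 (SE 0.51) for A4 and -3.63 (SE 0.65) for CUST_23835, and -4.10 (SE 0.63) and -3.93 (SE 0.74) for these probes in RR males alone. In NR males alone it was -1.52 (SE 0.89) for A4 and -2.47 (SE 1.99) for CUST_23835. For the other probes the term over all males was -2.03 (SE 0.53) for A3, -1.66 (SE 0.51) for Gamma-crystallin M2, -1.31 (SE 0.29) for CUST_32302 and -0.49 (SE 0.26) for J1A. The order of the probes was not that of NR males alone, in which the term was -1.73 (SE 0.82) for CUST_32302, -0.91 (SE 0.67) for J1A, 0.092 (SE 0.98) for A3 and 1.66 (SE 1.60) for Gamma-crystallin M2. Over all males without RR male 16 it was -3.82 for A4, -3.41 for CUST_23835 and -2.49 for A3. Both A4 and CUST_23835 had been listed as lower in maturing RR males, which is the falling side of this bend, so that no test is given.

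The ration differences depended on how the score entered the model. With the score as a straight line, A4 was -1.39 (SE 0.27) and Gamma-crystallin M2 -1.13 (SE 0.20, adjusted p = 0.00053 in limma), and 2 of 6 crystallin probes passed the thresholds, against 0.462% of all probes. Gamma-crystallin M2 passed with each of the 37 males left out in turn (-1.198 to -1.05). A4 was chosen by the ration contrast, and Gamma-crystallin M2 by the same list from which the score was built. These calls with the score are therefore a description only. With the score and its square, A4 was -0.32 (SE 0.23) and Gamma-crystallin M2 -0.63 (SE 0.23, adjusted p = 0.275 in limma). Then 0 of 6 passed (limma), against 0.0442% of all probes. Gamma-crystallin M2 and, with the opposite sign, CUST_23835 had an unadjusted p below 0.05 in limma. The share of all probes below 0.05 in this model is not given here, and nothing is read from these 2. In the same model A3 was 0.41 (SE 0.24), CUST_23835 0.63 (SE 0.29), CUST_32302 0.03 (SE 0.13) and J1A 0.09 (SE 0.12), all of the opposite sign to their plain differences. Without RR male 16, A4 was -1.34 with the score and -0.28 with the score and its square, Gamma-crystallin M2 was -1.08 and -0.67 in these models, and CUST_32302 was -0.014 with the square. NR males occupied the middle of the score, where A4 was highest, and both of its ends held RR males only. Since part of the score probes had been listed between rations, these positions and the differences given the score can carry ration by construction. Ration differences with a score free of those probes are not given here.

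**Figure D3:**
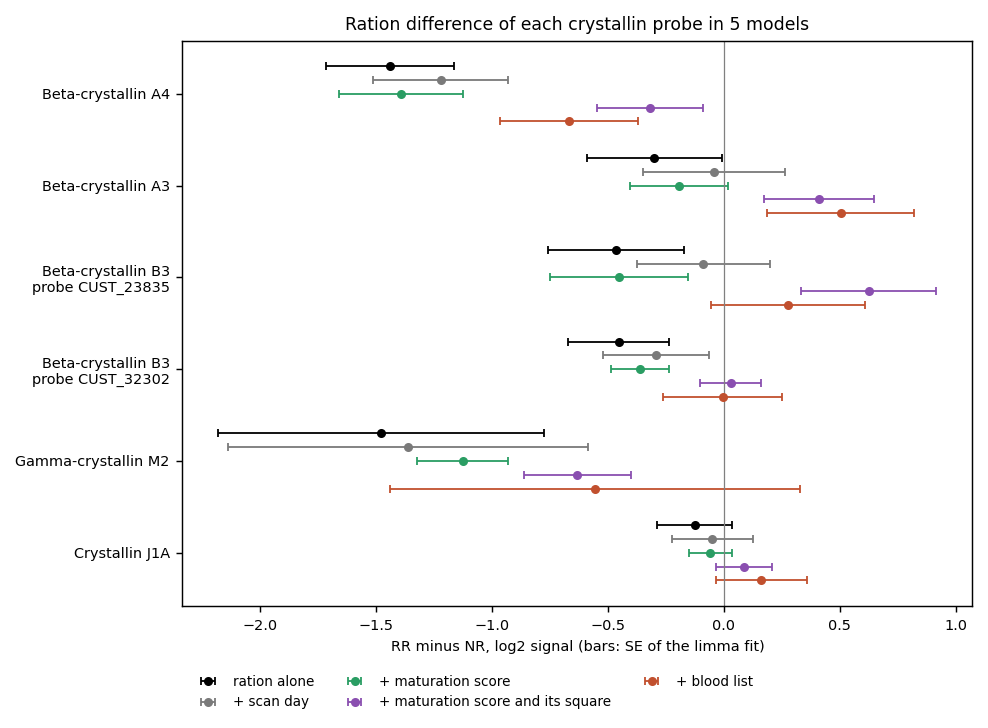
RR minus NR difference in log2 signal (x axis) of each crystallin probe (y axis) in 5 limma models, with bars for the SE. The A4 difference is -1.44 with ration alone, -1.22 with scan day, -1.39 with the score, -0.32 with the score and its square and -0.67 with the blood list.

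Blood transcripts moved with ration in the same samples. The list of 7 probes for hemoglobin subunits and erythroid 5-aminolevulinate synthase, the first enzyme of heme synthesis in red cells, was taken from the study's table and so chosen on these males, and 5 of the 7 passed the thresholds, all lower in RR males (0.167% of all probes). Its mean log2 signal was between 13.03 and 15.86 in RR males (median 14.39), against 14.71 to 15.87 in NR males (median 15.44). With the blood list as a covariate the A4 difference was -0.67 (SE 0.30), that of Gamma-crystallin M2 -0.55 (SE 0.89) and that of A3 0.50 (SE 0.32). In that model 0 of 6 probes passed (limma), against 0.0295% of all probes. A4 alone had an unadjusted p below 0.05 in limma, and the share of all probes below 0.05 in that model is not given here. Without RR male 16 the A4 difference in this model was -0.65 (SE 0.29). The part of blood in these differences was not tested. RR males 4 and 11, at the bottom of the A4 range, had the lowest blood values, 13.03 and 13.27, while RR male 3, also low for A4, had 14.76.

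**Figure D4:**
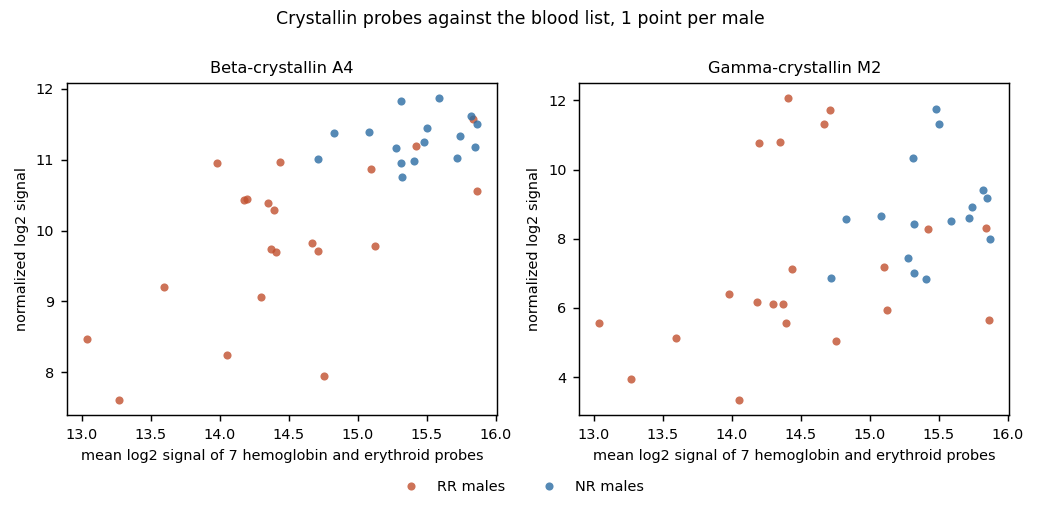
Normalized log2 signal of Beta-crystallin A4 and Gamma-crystallin M2 (y axes) against the mean log2 signal of 7 hemoglobin and erythroid probes (x axis), with 1 point per RR or NR male. In A4 the RR males with the lowest blood values, 13.03 and 13.27, are near the bottom of the range, while the highest values of Gamma-crystallin M2 in RR males lie at blood values between 14.19 and 14.71.

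Several of the crystallin probes also varied together among males of the same ration. In deviations from the ration means over 37 males, given as a description since all males share the platform and scan days, Gamma-crystallin M2 correlated with CUST_32302 at r = 0.85 and with J1A at r = 0.77. A3 correlated with CUST_32302 at r = 0.81 and with A4 at r = 0.74. CUST_23835 correlated with A4 at r = 0.66 but with J1A at r = 0.26 and with Gamma-crystallin M2 at r = 0.13. A3, CUST_32302, Gamma-crystallin M2 and J1A had all been listed as higher in maturing males, so that correlations among them can follow from that choice. A4 and CUST_23835 had both been listed as lower in maturing RR males, with the same limit. The share over all pairs of probes is not given here, and nothing about the family is read from these values. With the score taken out by a straight line, the correlation of Gamma-crystallin M2 with CUST_32302 was 0.34 and with J1A -0.16. That of A3 with CUST_32302 was 0.57, while those of A4 with A3 (0.77) and with CUST_23835 (0.67) were not lower than before. A straight line does not take out the bend of these probes against the score, and the part of a shared bend was not tested. Without RR male 16 the correlation of CUST_23835 with Gamma-crystallin M2 was 0.011, and with the score taken out that of Gamma-crystallin M2 with CUST_32302 was 0.24.

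**Figure D5:**
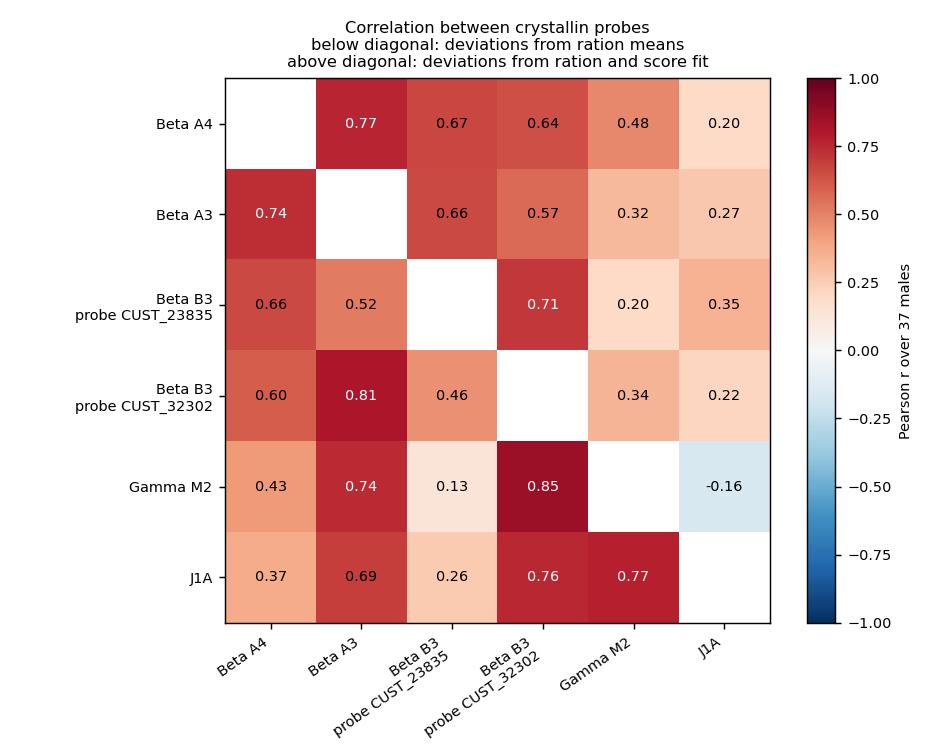
Pearson r between crystallin probes over 37 males, below the diagonal for deviations from the ration means and above it for deviations from a fit of ration and maturation score. The score entered that fit as a straight line, which leaves any bend in place. Correlations among A4, A3 and the 2 B3 probes lie between 0.57 and 0.77 above the diagonal, while those of Gamma-crystallin M2 and J1A lie between -0.16 and 0.48.

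The probes whose deviations were most like those of each crystallin were sought over all probes tested, and the closest 3 were kept. For Gamma-crystallin M2 they were CUST_9039_PI417904088, which has no description, Creatine kinase, testis isozyme, and Potassium voltage-gated channel subfamily G member 2, each at r = 0.96. For CUST_32302 they were Mdm2-binding protein (r = 0.92), Troponin T, cardiac muscle isoforms, and Schwannomin-interacting protein 1 (r = 0.91 for both). For A4 they were CUST_22691_PI417904088 (r = 0.85), Calcium-dependent secretion activator 1 (r = 0.84), which acts in the release of dense-core vesicles, and CUST_1802_PI417904088 (r = 0.80). Among the 3 nearest probes of A3 was Sorbitol dehydrogenase (r = 0.83) and of J1A the Protein canopy homolog 2 precursor (r = 0.90). The neighbours of CUST_23835 had lower correlations, at most 0.75, and no description.

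No probe of the list is described as an alpha-crystallin, the crystallins that are small heat shock proteins. The 13 probes of the study's table described as heat shock proteins or chaperones had ration differences between -0.17 and 0.43 with a median of 0.15, and 0 of 13 passed the thresholds (limma, against 0.256% of all probes), with 1 at an unadjusted p below 0.05, against 16.4% of all probes. All 13 had a positive slope on the score at an adjusted p below 0.01, against 19.7% of all probes, with a median of 0.66, but were chosen from lists made on these samples, so that nothing is read from this count. Of the 10 probes of proliferation genes, chosen from the same lists, none passed the thresholds between rations (0.256% of all probes) and 1 had an unadjusted p below 0.05 (16.4% of all probes). All 10 had a positive slope on the score at an adjusted p below 0.01 (19.7% of all probes), with a median of 1.73. Only crystallins were left out of the score. Probes of the marker lists that were listed as higher in maturing males are therefore part of it, and nothing is read from their slopes. The 2 probes of 3 beta-hydroxysteroid dehydrogenase had differences of -0.66 and -0.58. Neither passed the thresholds (adjusted p = 0.18 and 0.122 in limma), but both had an unadjusted p below 0.05 (16.4% of all probes). Both had positive slopes at an adjusted p below 0.01 (19.7% of all probes). They were likewise chosen from lists made on these samples, so that nothing is read from these counts.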

How the data were processed

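The authors measured testis RNA of 37 males on one-color Agilent arrays and deposited the intensity of each spot from Feature Extraction 10.7.1.1 with background-corrected signals and flags. The authors also deposited a log2 table, which matched the log2 of their background-subtracted spot signals to within 5e-09 and was not normalized between arrays. Genome build and probe sequences are not given in the sources used here, and no column belonged to another sample. Control spots were left out, 581 outlier spots were set missing, and log2 processed signals were quantile normalized (limma 3.58.1, R 4.3.3). A probe was kept where at least 16 arrays had it well above background (40684 of 43689). RR and NR males were compared over all probes with lmFit and eBayes, with Benjamini-Hochberg adjustment, and were called at a fold above 1.5 with an adjusted p under 0.01. The number of arrays limits the precision.

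The labels number the males from 1 in each ration. Each is taken as a separate fish. Descriptions come from the study's supplementary gene list. Named are all crystallin probes of that list, the lens membrane protein, the 3 probes most correlated with each, and examples of 4 marker lists. Members and lists were chosen with earlier results of these data known. Alternatives were 75th percentile scaling, other filters on dim probes, normexp (offset 50), scan day, slide, score and replicate blocks or covariates, the methods' t-test, array weights and leaving out each male. Slopes were also fitted on a score without probes of the ration lists. Chosen later, after seeing the data, were the deposited log2 values, the blood list, the number of probes above background, the squared score, a slope per ration and further fits without RR male 16. Functions were tested by adding known differences and slopes to these arrays' deviations from the ration means, with the males randomly regrouped.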

Additional observations from a re-analysis of the deposited data

How the results depend on the processing

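The number of crystallin probes past the thresholds was 1 of 6. It was 0 with scan day as a block, with the blood list and with the score and its square, 2 with the score alone and 2 with the replicate block, and 1 under the other alternatives and with each male left out. A4 kept its direction throughout, at -1.22 with scan day, -1.18 with score and scan day, -0.67 with the blood list, -0.32 with the score and its square, -0.97 on scan day 1 and -1.48 on scan day 2, where it no longer passed, and between -1.52 and -1.33 with 1 male left out. Gamma-crystallin M2 passed with the score (-1.13), with score and scan day (-1.05) and with the replicate block (-2.75). It lay between -1.72 and -1.28 with 1 male left out, where it did not pass. NR numbering stops at 16, so RR males 17 to 21 stood alone in the replicate block and added nothing to its differences. These males had the highest scores, with Gamma-crystallin M2 between 10.76 and 12.06. The count of 2 and the value of -2.75 thus leave them out, and are not read as a check on the main result.

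Signs turned for differences that had not passed. A3 was 0.051 with score and scan day, 0.50 with the blood list and 0.41 with the score and its square. CUST_23835 was 0.28 with the blood list, 0.63 with the score and its square and 0.081 on scan day 1. CUST_32302 was 0.029 with the score and its square. J1A was 0.0092 with score and scan day, 0.16 with the blood list, 0.087 with the score and its square and 0.0071 on scan day 2. With 1 male left out A3 lay between -0.39 and -0.19, CUST_23835 between -0.55 and -0.36, CUST_32302 between -0.53 and -0.37 and J1A between -0.18 and -0.05. The cause was not tested.

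Slopes on the score with 1 male left out lay between 0.43 and 0.72 for A4, 1.26 and 1.47 for A3, -0.027 and 0.40 for CUST_23835, 1.105 and 1.25 for CUST_32302, 4.43 and 4.67 for Gamma-crystallin M2 and 0.80 and 0.93 for J1A. With 75th percentile scaling the slopes were lower, at 0.31 for A4, 1.16 for A3, 0.95 for CUST_32302, 4.07 for Gamma-crystallin M2, 0.84 for J1A and -0.078 for CUST_23835. That of Gamma-crystallin M2 was 3.99 with normexp. With the score free of probes of the ration lists it was 4.66, and that of A4 0.62. In a fit of all males with a slope per ration, the NR slopes of A3 (1.64), CUST_32302 (1.497) and J1A (1.11) were steeper but no longer past 0.01. These probes had been listed for maturation, so that their slopes are a description only. Over all probes, 104 were called, 9 with scan day, 72 with score and scan day, 188 with the score, 18 with the score and its square, 12 with the blood list and 172 with array weights. With the replicate block, in which RR males 17 to 21 do not count, 290 were called.

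The replicate numbers were checked for pairing. Deviations of same-numbered males correlated at a median of 0.06 (range -0.26 to 0.38) over 16 pairs, over 0.1 in 6, and 2 of 16 NR males correlated best with their own number, so that the numbers do not pair the males. Restricted to probes well above background on all arrays, CUST_23835 drops out and gives no value.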
